A study of Arabidopsis thaliana with 16 samples.

Results

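In 352 of 15287 regions where an H3K4me3 domain was listed in guard cells of both genotypes, the domain was at least 500 bp longer in FAMA-LGK than in wild type (WT). Peaks of both H3K4me3 lists on chromosomes 1 to 5 that touched or overlapped were merged into 16485 union regions, of which 15287 held at least 1 bp from each list and 1198 were covered in 1 list. The lengthened regions were 2.30% of the shared regions, and the mirror rule of at least 500 bp less in FAMA-LGK chose 316 regions, or 2.07%. The remaining 14619 shared regions are called the other shared regions. The members were chosen by their measured H3K4me3 covered length in FAMA-LGK and in WT, so every length of H3K4me3 given here is a description without a test.

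The study profiled 2 histone marks by chromatin immunoprecipitation and sequencing (ChIP-seq) in sorted guard cells of Arabidopsis thaliana, comparing reprogrammed with differentiated guard cells. FAMA-LGK cells had the fama-1 mutation together with the construct FAMAp:FAMA-LGK, in which the promoter of FAMA drives the altered protein, and the other cells are labelled wild type. Both genotypes were sampled at 12 days post germination: the aerial parts of seedlings raised at 22 °C in cycles of 16 h light and 8 h dark were made into protoplasts, from which guard cells were sorted. Each mark in each genotype had 2 ChIP and 2 input libraries, represented here by 1 peak list without a value per replicate. A difference between lists therefore has no replicate spread behind it, and the labels do not say whether the libraries of a group came from separate batches of plants. The sources used here do not give the sort marker, the number of plants pooled or the number of FAMA-LGK lines.

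H3K4me3 is laid down around the starts of transcribed genes by Trithorax-type methyltransferases and usually covers the first part of a plant gene body. H3K27me3 is deposited by Polycomb repressive complex 2 and covers whole bodies of repressed genes. FAMA is a bHLH transcription factor that ends the stomatal lineage by making guard cells, and the LGK form has an altered motif for binding the retinoblastoma-related protein. In bulk chromatin, a longer domain in all cells and a long domain in some cells cannot be told apart.

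The lists were similar in size. The FAMA-LGK list had 15989 H3K4me3 peaks over 20.2 Mb with a median width of 1133 bp, and the WT list 16036 peaks over 19.9 Mb with a median width of 1115 bp. All shared regions together were slightly longer in FAMA-LGK, with 8781 of 15287 (57.4%) longer and a median difference of 19 bp. At FAMA itself the region had 627 bp of H3K4me3 in FAMA-LGK, against 3328 bp in WT, but reads of the construct and of the endogenous gene cannot be told apart there. Of 13 guard cell marker genes, 10 carried H3K4me3 in the gene body in FAMA-LGK, against 12 in WT, with summed lengths of 14186 bp in FAMA-LGK, against 24678 bp in WT. GC1, GORK and TGG2 were at 0 in FAMA-LGK, and TGG2 was at 0 in WT. Of the 11 markers at a shared region, 10 lay at a shortened region and 0 at a lengthened one. Over all protein-coding genes at a shared region, 2.57% were at a shortened region and 2.87% at a lengthened one.

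The covered length of the lengthened regions had a median of 1998 bp in FAMA-LGK (range 961 to 6164 bp) and 1198.5 bp in WT (range 377 to 5493 bp). The median difference was 681 bp (range 501 to 3583 bp, quartiles 577 and 868 bp). A 95% order-statistic interval for this median was 654 to 715 bp. It treats the regions as independent, holds no spread between replicates, and describes regions that were chosen by this same difference. Most differences were under 1000 bp: 108 regions (30.7%) gained between 500 and 600 bp, 123 between 600 and 800 bp, and 67 between 800 and 1000 bp. Gains of 1000 to 1500 bp were seen in 41 regions, gains of 1500 to 2000 bp in 9, and gains of at least 2000 bp in 4. Length at least doubled in 83 regions (23.6%). The other shared regions had a median length of 1137 bp in FAMA-LGK, against 1120 bp in WT, so the lengthened regions were of ordinary length in WT and long in FAMA-LGK.

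**Figure D1:**
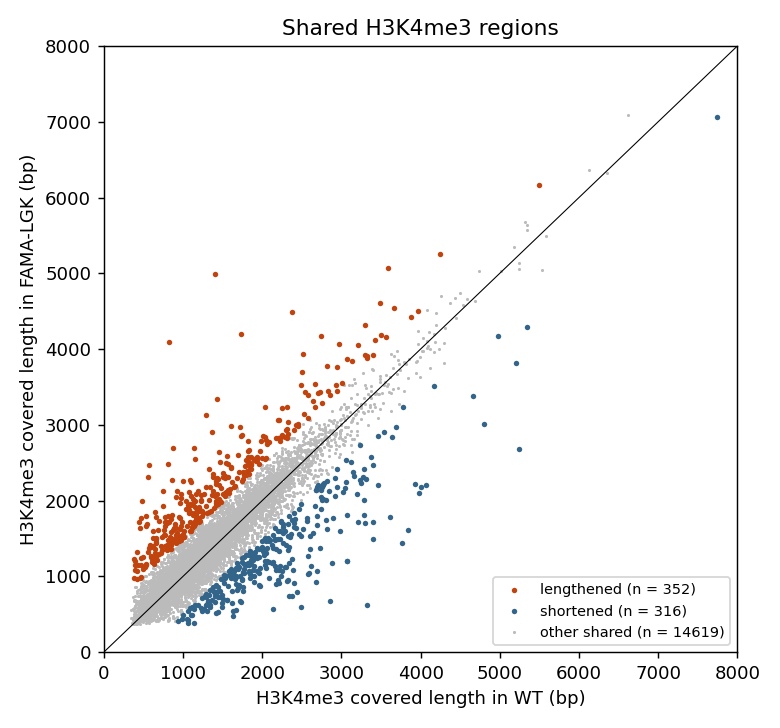
Each point is a shared region, with its H3K4me3 covered length in WT (horizontal axis, bp) against that in FAMA-LGK (vertical axis, bp), and the line marks equal length. The 352 lengthened regions (orange) form a band from the 500 bp limit upward with BGAL1 far above it (4985 bp in FAMA-LGK against 1402 bp in WT), the 316 shortened regions (blue) lie below the line, and the 14619 other shared regions (grey) lie along it.

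Just inside the limit lay the regions of GDPD2 (1600 bp in FAMA-LGK against 1099 bp in WT, a difference of 501 bp), AT5G65620 (1983 bp in FAMA-LGK against 1481 bp in WT, a difference of 502 bp) and AT1G78280 (3445 bp in FAMA-LGK against 2942 bp in WT, a difference of 503 bp). Just outside it lay ATH1 (1534 bp in FAMA-LGK against 1037 bp in WT, a difference of 497 bp), the replication licensing gene CDC6 (988 bp in FAMA-LGK against 492 bp in WT, a difference of 496 bp) and the epidermal MYB gene MYB16 (1670 bp in FAMA-LGK against 1176 bp in WT, a difference of 494 bp). Regions on either side of the limit thus differed by a few bp, and the set has no natural edge.

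Most domains were extended around a summit at nearly the same position in both lists. The strongest summits of the lists lay within 150 bp of each other in 288 lengthened regions (81.8%), with a median distance of 58 bp, against 92.9% and a median of 39 bp in the other shared regions. In 262 regions (74.4%) no bp covered in WT was uncovered in FAMA-LGK, against 30.3% of the other shared regions. The choice of regions favoured this in advance, and it was so in 0 of the 316 shortened ones. A single outer end held at least 80% of the gain in 251 regions (71.3%), against 58.8% of the other shared regions. A gain mostly at one end was thus common outside the lengthened regions too. Both outer ends gained at least 100 bp in 105 (29.8%), against 1.16% of the other shared regions, where the median gain was 41 bp. The gain was divided almost evenly between the lower-coordinate end (136282 of 280413 bp, 48.6%) and the higher-coordinate end (118215 bp, 42.2%), and 25916 bp (9.24%) lay between WT peaks.

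In a minority, 1 FAMA-LGK peak spanned several WT peaks. In 309 regions there was 1 WT peak, in 41 there were 2 and in 2 there were 3, and all 43 regions with several WT peaks (12.2%) lay under a single FAMA-LGK peak. This was so in 63 of the other shared regions (0.431%). It was so in 0 of the 316 shortened ones, where the rule works against it. The shortened regions had the reverse, with 2 FAMA-LGK peaks in 25 of them (7.91%) and 1 WT peak in all. Joined peaks in the longer list were thus not particular to the lengthened regions. At least 50% of the gain lay between WT peaks in 31 regions (8.81%). LOX4, PEPR1 and IAGLU had the largest such gains. At the higher-coordinate end the largest gains were at BGAL1 (3550 bp), RBOHD (1823 bp) and AT3G15550 (1744 bp), and at the lower-coordinate end at AT3G09450 (3217 bp), AT5G65600 (1874 bp), a lectin receptor kinase gene, and AT3G12910 (1665 bp).

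The gain lay inside genes. Of the gained bp, 264245 (94.2%) were inside a protein-coding gene, against 86.8% of those of the other shared regions. In the 232 regions that touch 1 gene, 96.4% of the gain lay inside that gene, 2.42% beyond the gene end nearer the WT summit and 1.22% beyond the other end. In the same kind of region among the other shared ones, these shares were 86.9%, 11.3% and 1.85%. The end nearer the summit stands in for the gene start, because strands were missing from the gene table. H3K4me3 covered a median of 65.4% of the assigned gene in FAMA-LGK, against 35.0% in WT. At least 90% of the gene was covered in 54 of 349 regions in FAMA-LGK and in 1 in WT, that of ICE1. The choice of regions and the assignment of genes both rest on gained bp, so low cover in WT was favoured in advance. The shortened regions had the mirror pattern, with at least 90% covered in 11 of 315 in FAMA-LGK and in 77 in WT. The assigned genes had a median length of 2777 bp, against 2563 bp for the other shared regions and 2756 bp for the shortened ones.

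**Figure D2:**
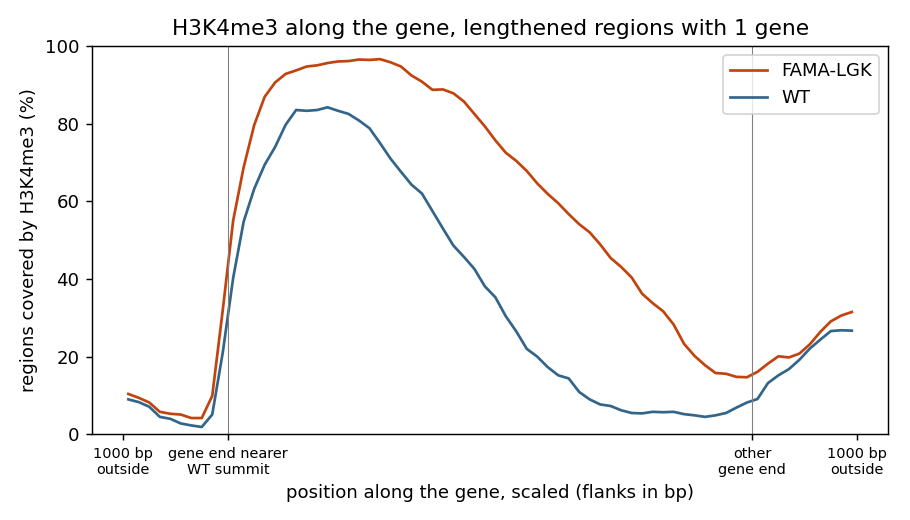
Share of the lengthened regions with 1 gene (vertical axis, %) that were covered by H3K4me3 along the gene, which is scaled to 1 length and turned so that the end nearer the WT summit is on the left, with 1000 bp of flank in bp on each side. Coverage reached 96.6% at its highest in FAMA-LGK (orange) and 84.2% in WT (blue). The curves part most near the middle of the gene (67.8% in FAMA-LGK, against 22.0% in WT). They come together towards the other gene end (14.7% in FAMA-LGK, against 8.2% in WT).

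By the authors' values of peak strength, ranked only within each list, the lengthened regions stood lower in the WT list than in the FAMA-LGK list. The strongest peak of a region had a median percentile by −log10 q of 45.0 in the FAMA-LGK list and 28.6 in the WT list. In the lowest 25% of its list lay the FAMA-LGK peak of 95 regions and the WT peak of 165 regions (46.9%), against 21.3% for the other shared regions in either list. The WT peak of another 70 regions (19.9%) lay in the highest 25%. The shortened regions mirrored this, with the FAMA-LGK peak of 50.9% and the WT peak of 18.4% in the lowest 25% of its list. With only the 75% of peaks highest in each list by this value, the same rules chose 210 lengthened and 193 shortened regions. Of the 352 lengthened regions, 160 kept all of their peaks in both lists there, while 75 lost their WT peaks, 5 their FAMA-LGK peaks and 90 their peaks in both. The part of peak strength in the lengths was not tested.

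The largest difference was at BGAL1 (AT3G13750), a beta-galactosidase of the cell wall. Its region at chromosome 3, 4510902 to 4515886 (TAIR10), was covered over 4985 bp in FAMA-LGK, against 1402 bp in WT, a difference of 3583 bp, of which 3550 bp lay at one end. H3K4me3 covered 89.3% of the gene in FAMA-LGK, against 24.9% in WT. Its peak was at the 60.2 percentile of the FAMA-LGK list and at the 32.1 percentile of the WT list. The second largest was at AT3G09450 (chromosome 3, 2907252 to 2911347), with 4096 bp in FAMA-LGK, against 818 bp in WT. There the FAMA-LGK peak covered all of the gene, and the WT peak touched none of it.

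The 20 largest differences at genes with a symbol include LOX4, PEPR1, RBOHD, SD1-13 and MLO6. LOX4, a lipoxygenase of jasmonate synthesis, had 4202 bp in FAMA-LGK, against 1727 bp in WT (chromosome 1, 27308327 to 27312528), where a single FAMA-LGK peak spanned 2 WT peaks and the 2318 bp between them. PEPR1, a receptor kinase for endogenous danger peptides, had 4492 bp in FAMA-LGK, against 2382 bp in WT (chromosome 1, 27484161 to 27488652), with 2019 bp between WT peaks. The gene body was covered over 100% in FAMA-LGK, against 48.9% in WT, and the second WT peak lay mostly on the neighbouring gene AT1G73090. RBOHD, the NADPH oxidase that makes reactive oxygen species in immune and guard cell signalling, had 3343 bp in FAMA-LGK, against 1432 bp in WT. The S-domain receptor kinase gene SD1-13 had 1723 bp in FAMA-LGK, against 450 bp in WT, and the powdery mildew susceptibility gene MLO6 had 2265 bp in FAMA-LGK, against 1003 bp in WT. At SD1-13 the WT peak was at the 0.9 percentile of its list.

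GA2OX6, IAGLU and BAS1 were also among these 20. GA2OX6, a gibberellin 2-oxidase, had 2903 bp in FAMA-LGK, against 1365 bp in WT. IAGLU, which conjugates auxin to glucose, had 3697 bp in FAMA-LGK, against 2503 bp in WT, with 1167 bp of the gain between WT peaks. BAS1, the cytochrome P450 CYP734A1 that inactivates brassinosteroids, had 2048 bp in FAMA-LGK, against 908 bp in WT. H3K4me3 covered 98.3% of the GA2OX6 body in FAMA-LGK, against 46.6% in WT.

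BXL1, UGT85A5, ZIF1, CHY1, MO1 and HOL1 were further members of the 20. BXL1, a beta-xylosidase of the cell wall, held a pair of lengthened regions 105 bp apart. The first had 2128 bp in FAMA-LGK, against 746 bp in WT, and the second 1949 bp in FAMA-LGK, against 1062 bp in WT. The peak of the first was weak in both lists, at the 2.9 percentile in FAMA-LGK and the 15.1 percentile in WT. The glycosyltransferase gene UGT85A5 had 1996 bp in FAMA-LGK, against 485 bp in WT, and the vacuolar zinc and nicotianamine transporter gene ZIF1 had 3239 bp in FAMA-LGK, against 2042 bp in WT. CHY1, which acts in peroxisomal valine breakdown, had 2977 bp in FAMA-LGK, against 1722 bp in WT. For the monooxygenase gene MO1 the lengths were 1801 bp in FAMA-LGK, against 531 bp in WT, and for HOL1, a methyltransferase of halide ions, 1925 bp in FAMA-LGK, against 751 bp in WT. H3K4me3 covered 65.3% of HOL1 in FAMA-LGK, against 25.5% in WT. The WT peaks of UGT85A5, MO1 and HOL1 were at the 2.3, 3.4 and 1.2 percentiles of their list.

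The remaining members of the first 20 were EDA39, HB5, SYN3, ORG1 and YLS5. EDA39, also called IQM1, had 2472 bp in FAMA-LGK, against 573 bp in WT. The homeodomain-leucine zipper gene HB5 had 2270 bp in FAMA-LGK, against 863 bp in WT. The strongest WT peaks of EDA39 and HB5 were at the 1.9 and 5.5 percentiles of their list. SYN3, a cohesin subunit, had 2132 bp in FAMA-LGK, against 922 bp in WT, and 27.8% of its body was covered in FAMA-LGK, against 0% in WT, where the peak lay on the neighbour AT3G59540. ORG1 lay in a long domain in both genotypes, with 4167 bp in FAMA-LGK, against 2739 bp in WT. At YLS5, a DJ-1 family gene, a single FAMA-LGK peak of 3930 bp spanned 2 WT peaks that summed to 2510 bp, with 712 bp of the gain between them, and the region also touches AT2G38870.

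**Figure D3:**
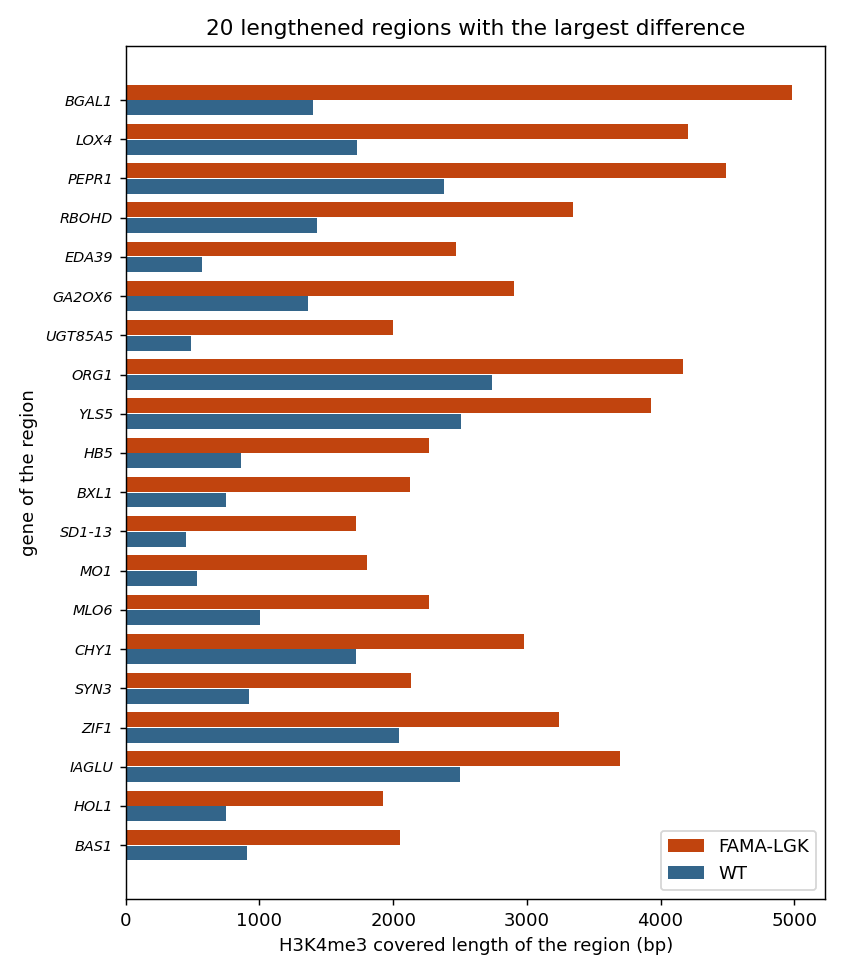
H3K4me3 covered length (bp) of the 20 lengthened regions with the largest difference whose gene has a symbol, with FAMA-LGK (orange) above WT (blue) for each gene and 1 value per list. BGAL1 has 4985 bp in FAMA-LGK, against 1402 bp in WT, and BAS1 at the foot 2048 bp in FAMA-LGK, against 908 bp in WT.

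Regulators of the stomatal lineage were often at lengthened regions. Of all protein-coding genes at a shared region, 486 of 16953 (2.87%) were touched by a lengthened one and 436 (2.57%) by a shortened one. Of 25 lineage regulators at a shared region, 10 (40.0%) were at a lengthened region and 1, FAMA, at a shortened one. Their regions were longer in FAMA-LGK for 20 and shorter for 5, with a median difference of 227 bp, against 9824 longer, 7079 shorter and a median of 23 bp over all genes at a shared region. The list was chosen with results of these lists known, so the count is a description.

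The lineage is started and carried on by bHLH factors, and 3 of their genes lay at lengthened regions. SPCH, which starts the asymmetric divisions, had 2055 bp in FAMA-LGK, against 1536 bp in WT (chromosome 5, 21587069 to 21589123). Its partner genes ICE1 and SCRM2 encode closely related bHLH proteins. The ICE1 region had 4188 bp in FAMA-LGK, against 3506 bp in WT, and also touches AT3G26742. Of the gain of 682 bp, 190 bp lay in the ICE1 body and 363 bp between WT peaks. The ICE1 body was covered over 99.6% in FAMA-LGK, against 92.3% in WT. SCRM2 had 2574 bp in FAMA-LGK, against 1854 bp in WT, with 98.8% of its body covered in FAMA-LGK, against 79.0% in WT.

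Receptor and polarity genes of the lineage followed. ERL1, a receptor kinase that reads stomatal spacing peptides, had 1516 bp in FAMA-LGK, against 931 bp in WT. At TMM, the receptor-like partner of these kinases, the region had 2571 bp in FAMA-LGK, against 1936 bp in WT, but the gain lay on the neighbour AT1G80070. The body of TMM itself was covered over 1831 bp in both lists. POLAR (AT4G31805), a polarity protein of asymmetric divisions, lay in a region with 3922 bp in FAMA-LGK, against 3399 bp in WT, and that region also touches AT4G31800 and AT4G31810. Its gain was 354 bp once gaps of up to 200 bp within a list were filled, which is under the limit.

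Transcription regulators of later steps made up the other lengthened lineage genes. The MYB gene FLP, which limits the last division, had 1608 bp in FAMA-LGK, against 686 bp in WT. SOL1 had 1994 bp in FAMA-LGK, against 1045 bp in WT, and SOL2, listed as TCX2, had 2547 bp in FAMA-LGK, against 2030 bp in WT. These encode CXC-domain proteins of the DREAM complex type that act in the lineage. HDG2, a homeodomain factor of the epidermis, had 2483 bp in FAMA-LGK, against 1856 bp in WT, with 569 bp of the gain between WT peaks. With only the 75% of peaks highest by −log10 q kept, the regions of ERL1, FLP, SOL1 and SOL2 had no peak in either list, and those of SPCH and HDG2 had none in WT. The differences at these 6 genes therefore rest on the weaker peaks of at least 1 list. ICE1 lost part of its covered WT length in the same setting, and the peaks at SCRM2, TMM and POLAR were all kept.

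Mature guard cell genes stood on the opposite side more often. Of 32 genes of this list at a shared region, 3 (9.38%) were at a lengthened region, beside 2.87% of all genes at a shared region, and 13 were at a shortened one, beside 2.57%. The median difference of the list was -235.5 bp, beside 23 bp for all such genes. Many of the shortened genes, such as KAT1, KAT2, SLAC1 and GC1, are also among the guard cell markers above. The counts of these lists are therefore not separate observations. The lengthened ones were RBOHD, the blue light receptor gene PHOT1 with 1831 bp in FAMA-LGK, against 1109 bp in WT, and the carbonic anhydrase gene CA4 (listed as BCA4) with 2445 bp in FAMA-LGK, against 1611 bp in WT. Each of the 3 also functions outside guard cells.

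The other gene lists are read against the same 2.87% of all genes at a shared region. Of 44 cell cycle and DNA replication genes at a shared region, 1 (2.27%) was lengthened, near that share, namely the mitotic cyclin gene CYCA1;1, with 1450 bp in FAMA-LGK, against 862 bp in WT. Of 21 genes of the wounding and protoplasting response, 2 (9.52%) were lengthened and 1 was shortened. The lengthened ones were the jasmonate repressor gene JAZ5, with 1944 bp in FAMA-LGK, against 1412 bp in WT, and the lipoxygenase gene LOX3, with 3884 bp in FAMA-LGK, against 3321 bp in WT. None of 20 Polycomb, Trithorax and H3K4 machinery genes and none of 14 housekeeping genes at a shared region was lengthened. Their median differences were 33.5 bp and 41.5 bp, beside 23 bp for all genes at a shared region.

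Markers of other cell types are given beside these counts for the makeup of the sorted cells. Of 11 mesophyll markers, 8 carried H3K4me3 in the body in FAMA-LGK, against 10 in WT, with sums of 11634 bp in FAMA-LGK, against 13112 bp in WT. LHCB1.2, RBCS1B and RBCS2B were at 0 in FAMA-LGK, and LHCB1.2 was at 0 in WT. The 8 mesophyll markers at a shared region were longer in FAMA-LGK for 5 and shorter for 3, with a median difference of 30.5 bp. In WT, the bodies of RBCS1B and RBCS2B carried 678 bp and 1139 bp of H3K4me3. Of 7 trichome and pavement markers, 5 carried it in FAMA-LGK, against 4 in WT, with sums of 8125 bp in FAMA-LGK, against 5941 bp in WT, and GL1 and GL3 were at 0 in both. Of 7 vascular markers, 1 carried it in FAMA-LGK, against 2 in WT, with sums of 1384 bp in FAMA-LGK, against 1104 bp in WT, and APL, XCP1, XCP2, IRX3 and ATHB8 were at 0 in both. The vascular marker with the mark in FAMA-LGK was the phloem sucrose transporter gene SUC2, a lengthened member with 1384 bp in FAMA-LGK, against 592 bp in WT. Of 24 light harvesting and carbon fixation genes at a shared region, 1 (4.17%) was lengthened, near the 2.87% of all genes at a shared region. It was FBA1, an aldolase of carbon fixation, with 1522 bp in FAMA-LGK, against 732 bp in WT. The part of cell makeup in the lengths was not tested.

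The H3K27me3 lists were not used to choose the regions, so they give a separate reading of the members. H3K27me3 lay within 46 lengthened regions in FAMA-LGK (13.1%, exact 95% interval 9.73 to 17.0%) and within 65 in WT (18.5%, 14.6 to 22.9%). Over all shared regions these shares were 6.83% in FAMA-LGK, against 7.44% in WT. The shortened regions were also above them, with 19.3% in FAMA-LGK, against 15.5% in WT, so a raised share was not particular to the lengthened ones. The count takes any overlap of at least 1 bp. The lengthened regions were also wider, with a median covered length of 1998 bp in FAMA-LGK, against 1147 bp over all shared regions. With 1000 bp added on each side, they were at 19.6% in FAMA-LGK and 25.9% in WT. All shared regions were then at 19.7% and 19.9%, and the shortened ones at 26.3% and 22.2%. The part of width in these shares was not tested. In the lengthened regions H3K27me3 was listed in both genotypes at 45. It was listed in FAMA-LGK alone at 1 (0.284%) and in WT alone at 20 (5.68%). Over all shared regions it was listed in FAMA-LGK alone at 0.792% and in WT alone at 1.41%. The intervals cover counting error only, and neighbouring regions are not independent.

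Where the lengthened regions carried any H3K27me3, it mostly covered less in FAMA-LGK. Of 66 such regions, 54 had less in FAMA-LGK, 10 had more and 2 had the same, and of the 1130 such regions among the other shared ones, 580 had less, 337 more and 213 the same. A difference of at least 200 bp was seen as less in FAMA-LGK at 37 lengthened regions (10.5%, against 1.64% of all shared regions) and as more at 3 (0.852%, against 0.863%). The shortened regions had the mirror pattern. Of 63 with any H3K27me3, 16 had less in FAMA-LGK, 44 had more and 3 had the same, and it was listed in FAMA-LGK alone at 14 and in WT alone at 2. No test between lists was possible without replicate values.

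H3K27me3 covered less in FAMA-LGK in both the gained and the kept part of the lengthened domains. In the 280413 gained bp it covered 20443 bp (7.29%) in FAMA-LGK, against 30077 bp (10.7%) in WT. In the 498269 bp with H3K4me3 in both genotypes it covered 28552 bp (5.73%) in FAMA-LGK, against 42014 bp (8.43%) in WT. Over all of the other shared regions H3K27me3 covered 3.26% in FAMA-LGK, against 3.66% in WT. Most of the gained bp carried no H3K27me3 in either genotype. Bulk peaks cannot say whether both marks at a region lie in the same cells.

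The members with the largest H3K27me3 differences towards less in FAMA-LGK had varied functions. AT1G78230 had 0 bp of H3K27me3 in FAMA-LGK, against 1445 bp in WT. UGT85A5 had 0 bp in FAMA-LGK, against 1438 bp in WT, and the nearby UGT85A2, in a lengthened region 390 bp away, had 0 bp in FAMA-LGK, against 771 bp in WT. FBA1 had 0 bp in FAMA-LGK, against 1345 bp in WT. AT3G63210, also called MARD1, had 0 bp in FAMA-LGK, against 1078 bp in WT, and AT1G75640 had 0 bp in FAMA-LGK, against 1075 bp in WT. BEL1, a homeodomain gene of ovule development, kept the mark with 807 bp in FAMA-LGK, against 1773 bp in WT.

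At the named regions with H3K27me3, the mark was absent, shorter or longer in FAMA-LGK than in WT. SPCH had 0 bp of H3K27me3 in FAMA-LGK, against 540 bp in WT, inside its H3K4me3 domain, and HB5 had 0 bp in FAMA-LGK, against 439 bp in WT. LOX4 kept 1921 bp in FAMA-LGK, against 1996 bp in WT, and RBOHD kept 760 bp in FAMA-LGK, against 995 bp in WT. More H3K27me3 by at least 200 bp was seen at ERD6, a sugar transporter gene, with 606 bp in FAMA-LGK, against 0 bp in WT. It was also seen at AT5G05600, with 1427 bp in FAMA-LGK, against 921 bp in WT, and at AT3G54150, with 870 bp in FAMA-LGK, against 636 bp in WT. SUC2 carried 1322 bp in FAMA-LGK, against 1384 bp in WT, nearly all of its region, and JAZ5 carried 1517 bp in FAMA-LGK, against 1666 bp in WT.

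**Figure D4:**
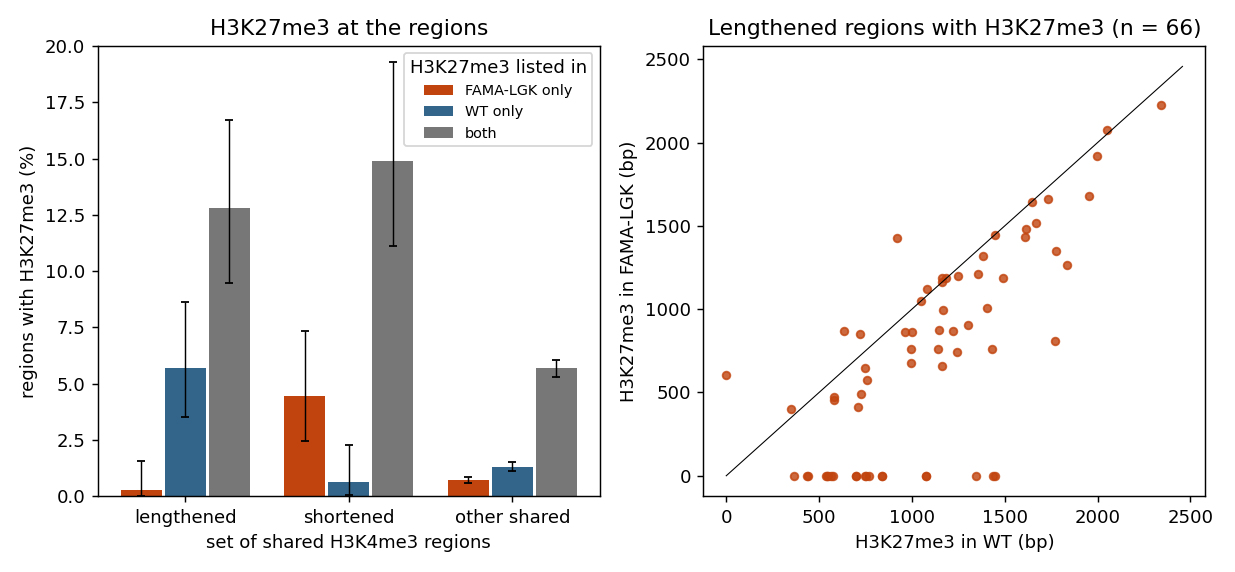
Left, share of lengthened, shortened and other shared H3K4me3 regions (%) with H3K27me3 listed in FAMA-LGK only (orange), WT only (blue) or both (grey), with exact 95% intervals for counting error. Right, H3K27me3 covered length (bp) in WT against FAMA-LGK at the 66 lengthened regions with any, where 54 points lie below the line of equal length and 20 lie at 0 bp in FAMA-LGK.

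The map of 4 loci shows the ways in which the regions lengthened. At BGAL1 a domain with 1 WT peak ran on through the gene. At PEPR1 a single domain spanned the gap between WT peaks on adjacent genes. At SPCH the domain grew at one end by 492 bp, and the WT H3K27me3 peak lay inside the H3K4me3 domain of both lists. At UGT85A5 and its neighbour UGT85A2 both domains grew at both ends over a stretch with H3K27me3 in WT and none in FAMA-LGK.

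**Figure D5:**
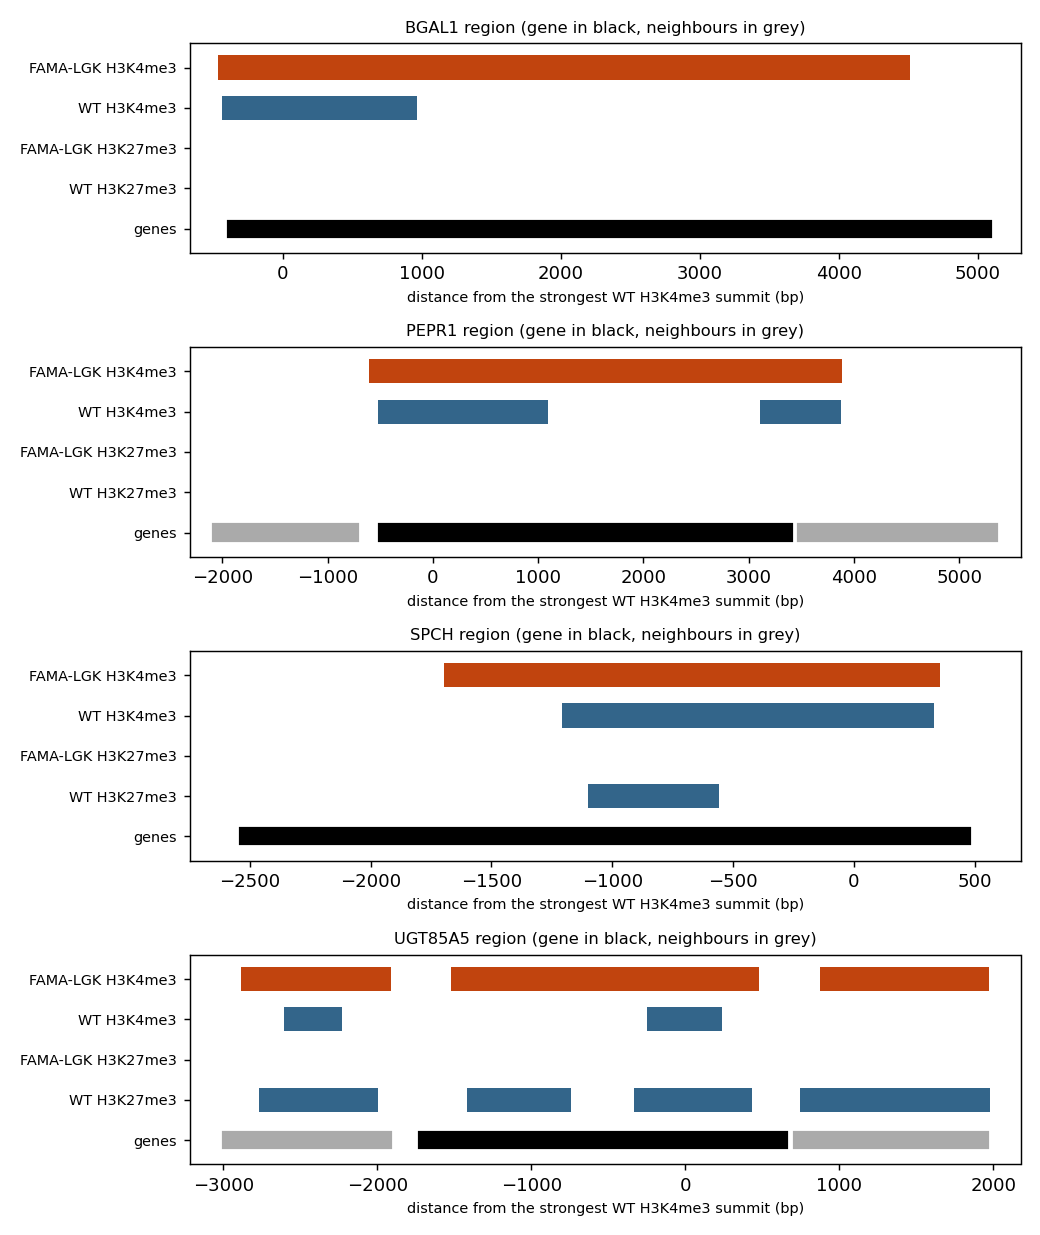
Listed peaks of both marks and protein-coding genes at the BGAL1, PEPR1, SPCH and UGT85A5 regions, by distance from the strongest WT H3K4me3 summit (bp), with FAMA-LGK in orange, WT in blue, the named gene in black and its neighbours in grey. The BGAL1 domain ends at 4517 bp in FAMA-LGK and at 967 bp in WT, and the UGT85A5 panel has H3K27me3 bars for WT only.

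Lengthened regions lay on all 5 chromosomes, with 100, 51, 66, 54 and 81 regions on chromosomes 1 to 5. Of these, 46 had another lengthened region within 10000 bp. Such neighbours included SPL11 and SPL10, growth phase regulators 3402 bp apart, and the SOL1 region, 4197 bp from that of AT3G22750. In all, 232 regions touched 1 protein-coding gene, 117 touched at least 2 and 3 touched none. Those touching at least 2 were 33.2%, against 22.3% of all shared regions. The 349 regions with a gene gave 347 distinct genes, 202 of them with a symbol.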

How the data were processed

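Sorted guard cells of 2 genotypes were profiled for H3K4me3 and H3K27me3, with 16 libraries in all, 8 ChIP and 8 input. The submitters' processing notes name CASAVA 1.8.2, Bowtie2, MACS2 and, as build, TAIR10. The sources used here do not give how replicates were combined or which peak threshold was set. The authors deposited 4 lists of peaks called per mark and genotype. Their fold (a ratio of ChIP over control) and −log10 q are the authors' values per peak; the −log10 q was used only to rank and filter peaks within a list, and no fold is reported. The deposited score and −log10 p were not used. The lists hold no read counts, so depth is unknown and its part in the lengths was not tested.

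Peaks were merged and measured with Python 3.11.15 and numpy 2.4.6, and the procedure was tested on simulated lists. Coordinates are those of the peaks, counted from 1. A region's gene is the protein-coding gene with the most gained bp, from a RefSeq table of the assembly TAIR10.1, used only for names and overlap. Of 16036 WT H3K4me3 summits, 96.3% lay inside its protein-coding genes, against 88.5% after a shift of 250 bp. The table has no strand, descriptions or sequences. Gains were therefore placed by coordinate end, by gene and by WT peak, gene classes came from words in names and synonyms, and promoter motifs were not analysed here. Of the 15 housekeeping genes, 14 were matched.

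Named members were the 20 largest differences with a symbol, all lengthened members of the gene lists, 3 regions on each side of the limit, up to 6 with the largest H3K27me3 change of at least 200 bp each way, and the 3 largest gains of each kind. Members and lists were chosen with earlier results of these data known. With 1 list per group, no test was possible. Exact intervals are Clopper-Pearson at 95%. Alternatives changed the gaps, peak threshold, number of peaks, rule, gene window and H3K27me3 minimum.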

Additional observations from a re-analysis of the deposited data

How the results depend on the processing

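The number of lengthened regions was 364 with gaps of up to 200 bp filled, 353 with a −log10 q of at least 5, 354 with equal numbers of peaks, 329 with a ratio of 1.5 in place of 500 bp, and 352 with 50% of the shorter coverage shared. Keeping only the 75% strongest peaks of each list by −log10 q gave 210 lengthened and 193 shortened regions. Of the 352 regions, 182 were then still covered in both lists, 75 in FAMA-LGK alone, 5 in WT alone and 90 in neither. Of the 182, 160 lost no covered bp, so their differences stood by construction, and 22 lost some. For the other regions the setting cannot show whether the lengths differ. Of 48 named regions, 20 were still covered in both lists there. The median difference of the 352 regions was 681 bp with gaps filled, with a −log10 q of at least 5 and with equal numbers of peaks. With gaps filled 47 of the 48 named regions had at least 500 bp, POLAR being the exception at 354 bp. The share of the gain between WT peaks was 9.01% with gaps filled. By largest overlap, 304 of 349 regions kept their gene. With 500 bp flanks the cell cycle list had 2 members at a lengthened region. H3K27me3 in both genotypes, FAMA-LGK alone and WT alone was at 45, 1 and 20 regions with a minimum of 150 bp, and at 44, 1 and 19 with a −log10 q of at least 5. No paired analysis was possible because each list holds its replicates together, and for the same reason no replicate could be left out.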

Other observations

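Further members fall into families that were picked after their values were seen, so their counts are descriptions, to be read beside the 2.87% of all genes at a shared region that were lengthened and the 2.57% that were shortened. Auxin transport genes were among them. Of 4 PIN efflux carrier genes at a shared region, 2 were at a lengthened one, and both carried less H3K27me3 in FAMA-LGK. PIN4 had 2010 bp of H3K4me3 in FAMA-LGK, against 1328 bp in WT, with 1263 bp of H3K27me3 in FAMA-LGK, against 1833 bp in WT. PIN7 had 1251 bp of H3K4me3 in FAMA-LGK, against 656 bp in WT, with 761 bp of H3K27me3 in FAMA-LGK, against 1142 bp in WT. The influx carrier gene AUX1 had 1995 bp of H3K4me3 in FAMA-LGK, against 1141 bp in WT. Of 15 Aux/IAA repressor genes at a shared region, 3 were lengthened and 1 was shortened. The shortened one was IAA28, with 774 bp in FAMA-LGK, against 1295 bp in WT. The lengthened ones included IAA1 with 1727 bp in FAMA-LGK, against 704 bp in WT, where H3K27me3 was 852 bp in FAMA-LGK, against 718 bp in WT.

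Iron homeostasis genes were another such group, with 4 of 14 at a shared region lengthened and 0 shortened. OPT3, a transporter of iron in the phloem, had 2241 bp in FAMA-LGK, against 1106 bp in WT. The E3 ligase gene BTS, a negative regulator of the iron deficiency response, had 2351 bp in FAMA-LGK, against 1381 bp in WT. PYE, a bHLH gene of the same response, had 3033 bp in FAMA-LGK, against 2326 bp in WT. ZIF1 was described above. None of the 4 regions had H3K27me3 in either list.

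Counts for the other families picked in this way follow. Of 17 cysteine-rich receptor kinase (CRK) genes at a shared region, 5 were lengthened and 0 shortened, with gains of 505 bp at CRK19, where the lengths were 2256 bp in FAMA-LGK, against 1751 bp in WT, to 781 bp at CRK26, with 1441 bp in FAMA-LGK, against 660 bp in WT. Of 7 glutamate receptor-like genes, 2 were lengthened, with 3520 bp in FAMA-LGK, against 2492 bp in WT at GLR3.3. The cyclic nucleotide-gated channel genes had 2 of 15 lengthened, the SPL genes 2 of 12 and the CLE peptide genes 1 of 8, with 0 shortened in each. Of 9 MLO genes 2 were lengthened, of 4 lipoxygenase genes 2 and of 4 UGT85A genes 3, again with 0 shortened in each. The UGT85A genes were the neighbours UGT85A2 and UGT85A5, with regions 390 bp apart, and UGT85A4. The last is touched by the AT1G78280 region, which was 503 bp longer, just inside the limit, with 367 bp of the gain in AT1G78280. By words in gene names, 23 of 462 kinase genes at a shared region (4.98%) were lengthened and 7 (1.52%) shortened, beside 2.87% lengthened over all genes. Cytochrome P450 genes were at both kinds of region, with 9 of 101 (8.91%) lengthened and 10 (9.90%) shortened. Of the genes named by a transcription factor family, 10 of 314 (3.18%) were lengthened and as many shortened, and of the transporter or channel genes 7 of 206 (3.40%) were lengthened and 12 (5.83%) shortened. Neighbouring family members can share a region, as CYP71B3 and CYP71B24 do.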
